A study of Homo sapiens with 6 samples.

Results

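Enzalutamide alone was compared with its vehicle, DMSO, in C4-2B MDVR cells, a human prostate cancer line derived from C4-2B that resists enzalutamide. One group received DMSO and the other 20 uM enzalutamide, an antiandrogen, each for 2 days and without PTUPB; there was 1 library on each side, 2 of the 6 in the study. The other 4 libraries, used here only beside these, came from the same cells after 2 days of PTUPB, which inhibits both soluble epoxide hydrolase and cyclooxygenase-2, at 10 or 20 uM, without or with enzalutamide, whose dose the labels do not give for the combinations. All groups share the resistant line and its background, and a single line stands for the disease. Genes were chosen by level alone: 12960 of the 58735 genes in the deposited table had a mean FPKM (fragments scaled to exon length and library size) of 1 or more over the 6 libraries. For each the difference was taken as log2(FPKM + 1) with enzalutamide minus log2(FPKM + 1) with DMSO, a scale that understates the difference of low genes. With 1 library a side there is no replicate check and no test, so values only are given. Counting intervals after a fold (95%, exact) cover counting error alone.

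Androgens are steroid hormones that switch genes on or off through androgen response elements, short DNA sequences near the genes they act on. In luminal prostate cells the induced targets include secreted kallikreins, transporters, regulators of signalling and enzymes of lipid, polyamine and glycan metabolism, while another set of genes is held down by androgen. Enzalutamide is an antiandrogen, given to block this signalling in prostate cancer.

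KLK3 and KLK2 encode prostate-specific antigen and human kallikrein 2, neighbouring genes on chromosome 19 and textbook targets of androgen. Their promoters are shown because they hold a shared motif among targets that were lower with enzalutamide. The lines give the 250 bases before the RefSeq start on the plus strand of GRCh38.p14, chr19:50854665-50854914 for KLK3 and chr19:50873189-50873438 for KLK2. Capitals mark GAACA and GTGCT with the 4 bases between them and, in KLK3, the half-site AGAACA that overlaps this motif and begins 170 bases before the start.
KLK3: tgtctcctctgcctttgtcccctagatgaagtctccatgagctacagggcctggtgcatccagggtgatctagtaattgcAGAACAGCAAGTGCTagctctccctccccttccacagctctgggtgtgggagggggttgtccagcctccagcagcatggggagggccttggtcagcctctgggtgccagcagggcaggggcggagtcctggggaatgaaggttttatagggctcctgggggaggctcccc
KLK2: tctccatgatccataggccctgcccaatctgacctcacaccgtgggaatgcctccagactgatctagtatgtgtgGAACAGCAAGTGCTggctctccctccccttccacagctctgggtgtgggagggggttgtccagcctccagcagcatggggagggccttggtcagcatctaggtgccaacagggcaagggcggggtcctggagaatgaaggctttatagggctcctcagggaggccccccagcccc
This motif was chosen after the 2 promoters had been viewed, and 26 of 27305 RefSeq promoters of this length (0.0952%) hold it on either strand. RefSeq promoters were found for 48 androgen-induced genes. The full palindrome, AGAACA and TGTTCT with 3 bases of any kind between them, was in 0 of these 48 windows. The search took exact letters only and found it in 1 of all 27305 promoters (0.00366%), so 0 of 48 says little. The half-site AGAACA was in 4 (8.33%, KLK3, KLF5, TACC2 and NEDD4L) against 12.4% of all promoters. A match is a description of letters and not of binding.

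Across all 12960 genes, 170 (1.31%) were higher and 178 (1.37%) lower with enzalutamide by log2 1 or more, and 1085 (8.37%) and 629 (4.85%) by log2 0.5 or more. Together 348 genes (2.69%) were past log2 1. The median difference was -0.00 and the range -3.73 to 2.93. By sign alone 6384 of the 12960 were above 0 and 6536 below, the background for each count of list members by direction. Many genes past log2 1 were short or weakly counted: 65 of the 170 and 77 of the 178 were short RNAs, and 71 and 113 had under 50 fragments in the 2 libraries together. Of all 12960 genes, 414 were short RNAs and 885 had under 50 fragments. Protein-coding genes made up 62 of the higher and 37 of the lower genes, and 10693 of all 12960. At the margin, SNORA11F, a small nucleolar RNA, was just past log2 -1 at 6.53 and 2.77 FPKM with DMSO and enzalutamide, and WASF1 was just short of it at 6.10 and 2.55. For the level filter, ZNF790 fell just outside and CFAP20DC just inside, both with a mean of 1.00 FPKM.

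The 2 libraries held 27337933 (DMSO) and 29450436 (enzalutamide) fragments, within the range of 20156523 to 29450436 over the study. Although the enzalutamide library held more, 3 fragments on 1 kb of exon came to 0.1062 FPKM in it and to 0.1004 with DMSO. The deposited scale, and the all-gene median on it, thus does not follow total fragments alone. They differed in the share of fragments from the mitochondrial genome, 6.47% with DMSO and 12.2% with enzalutamide. Rescaling each library to a fixed sum (TPM) shifted the all-gene median by -0.40, so the split of genes past log2 1 shifted from 48.9% higher to 17.7%, 140 higher and 652 lower. Without mitochondrial genes in that sum the shift was -0.12 (253 higher and 414 lower), by total fragments -0.16 (118 and 237), and by median of ratios -0.02 (161 and 179). Such a shift moved the list medians nearly alike: relative to the median of all genes, 44 of 46 kept their side under the 4 other scalings and none moved by more than 0.14. Single genes could move otherwise under TPM, ST6GALNAC1 from -3.57 to -4.53 and OPRK1 from 1.45 to 1.75. The 2 exceptions, mitochondrial transcription and WNT genes, lay 0.00 and -0.03 from that median as deposited. A list median after TPM is therefore given with its distance from the all-gene median of -0.41 in that scaling. Luminal epithelial markers were present, with a summed level of 1245 FPKM with DMSO and 1250 with enzalutamide and 0 of 18 listed at 0. Blood and endothelial markers were under 1 FPKM in both libraries for 10 of 10 and 8 of 8 genes, and 7 of 11 stromal, 9 of 10 basal and 13 of 18 neuroendocrine markers were as well. In bulk RNA, fewer cells of a kind and less RNA per cell cannot be told apart.

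**Figure D1:**
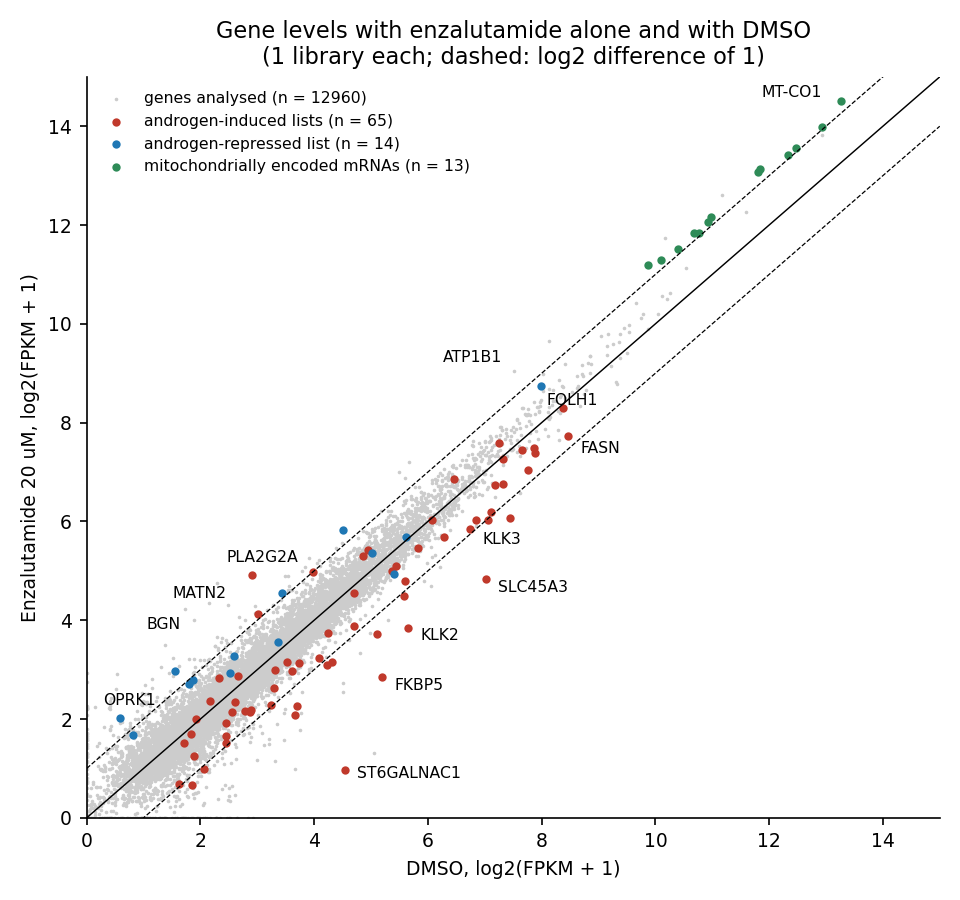
Level of each of the 12960 analysed genes with DMSO (x axis) and with 20 uM enzalutamide (y axis), both as log2(FPKM + 1), 1 library each; the solid line marks equal levels and the dashed lines a difference of log2 1. Of the 65 androgen-induced genes 54 lie below the line of equality, 13 of 14 androgen-repressed genes lie above it, and the 13 mitochondrially encoded mRNAs lie past the upper dashed line.

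Androgen-induced genes were lower as a group. By role, 4 lists hold 82 of them, of which 65 passed the level filter: 14 (21.5%) were lower and 2 higher by log2 1 or more, beside 1.37% and 1.31% of all genes. By log2 0.5 or more, 37 were lower (56.9%, beside 4.85%) and 3 higher. The median was -0.61 beside -0.00 for all genes, and -1.06 beside -0.41 after TPM. The lists were written from general knowledge of androgen targets, and the direction of a list is described by these counts only.

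Among the 10 analysed genes for secreted proteins the differences went both ways, with a median of -0.23. KLK2 was at 49.05 FPKM with DMSO and 13.4 with enzalutamide, 3.66-fold lower (3.50 to 3.83). KLK3 was at 105 and 56.6 FPKM, 1.86-fold lower (1.81 to 1.92), so KLK2 and KLK3 did not keep their ratio. The 2 genes are near copies, and some reads could fit either. TMPRSS2, a serine protease whose androgen-driven promoter is often fused to ETS genes in prostate cancer, was at 137 and 72.5 FPKM, 1.89-fold lower. MSMB, a seminal plasma protein gene, was at 5.85 and 3.45 FPKM, and KLK4 at 40.3 and 30.9. SPON2 (332 and 314 FPKM) and the zinc-binding lipid carrier gene AZGP1 (66.4 and 64.5) were within log2 0.1 of each other. ACP3, which encodes prostatic acid phosphatase, went the other way, 14.7 and 30.3 FPKM or 2.06-fold higher (1.95 to 2.18). PLA2G2A, a secreted phospholipase gene, was at 6.47 and 29.3 FPKM, 4.53-fold higher (4.01 to 5.12). Thus members of a single list lay past log2 1 in opposite directions.

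The 11 analysed transporters, channels and other membrane proteins had a median of -0.35. SLC45A3, a sugar transporter gene with expression largely limited to prostate (chromosome 1, 205657851 to 205680459), was at 128 FPKM with DMSO and 27.5 with enzalutamide, 4.66-fold lower (4.48 to 4.85). TRPM8, the cold-sensing calcium channel gene, was at 2.62 and 0.596 FPKM, 4.39-fold lower (3.63 to 5.34). PMEPA1, a negative regulator of TGF-beta signalling, was at 17.6 and 7.49 FPKM, 2.35-fold lower. These 3 were past log2 -1. ABCC4, an efflux pump for cyclic nucleotides and prostaglandins, was at 47.5 and 26.6 FPKM. The metalloreductase genes STEAP1 (151 and 191 FPKM) and STEAP2 (87.0 and 115) were instead higher, by 0.33 and 0.39 on the log2 scale. SLC4A4, a sodium bicarbonate cotransporter gene, was at 7.04 and 16.6 FPKM, 2.35-fold higher (2.23 to 2.48).

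Regulators of transcription and signalling formed the largest list, with 24 analysed genes, 7 lower by log2 1 or more, 16 by log2 0.5 or more and 0 higher by either margin. Of all genes, 1.37% and 4.85% were lower by these margins. FKBP5, a co-chaperone of steroid receptor complexes (chromosome 6, 35573585 to 35728583), was at 35.4 and 6.21 FPKM, 5.697-fold lower (5.42 to 5.99). RHOU, a small GTPase gene, was at 11.7 and 3.25 FPKM, 3.596-fold lower, and HERC3, a ubiquitin ligase gene, at 11.98 and 3.83, 3.13-fold lower. C1orf116, an androgen-regulated gene of epithelial cells, was at 33.4 and 12.1 FPKM, 2.75-fold lower. CAMKK2, a kinase upstream of AMPK, was at 46.9 and 21.5 FPKM, 2.18-fold lower. GREB1, a coactivator of hormone signalling, was at 3.19 and 0.985 FPKM, 3.24-fold lower (2.87 to 3.66), and NDRG1, a stress-responsive gene also induced by hypoxia, at 18.9 and 7.86, 2.41-fold lower. The highest differences of the list were those of TACC2 (4.02 and 6.07 FPKM, 0.49) and TSC22D3, which is also a glucocorticoid target (28.2 and 38.3 FPKM, 0.43).

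All 20 analysed metabolic targets were lower with enzalutamide, with a median of -0.68. By log2 1 or more 3 were lower and by log2 0.5 or more 12, beside 1.37% and 4.85% of all genes. ST6GALNAC1, a sialyltransferase gene (chromosome 17, 76624761 to 76643838), was at 22.2 FPKM with DMSO and 0.955 with enzalutamide, 23.3-fold lower (18.9 to 28.96), the largest log2 difference of any protein-coding gene analysed. SMS, which makes the polyamine spermine, was at 172 and 65.8 FPKM, 2.62-fold lower (2.52 to 2.71). ODC1, which makes putrescine, was at 215 and 130.0 FPKM, 1.66-fold lower, while AMD1, which supplies the aminopropyl donor, was at 159 and 152. UAP1, which makes UDP-N-acetylglucosamine, was at 133 and 64.7 FPKM, 2.05-fold lower. GCNT1, a mucin core branching enzyme gene, was at 11.2 and 6.83 FPKM. Lipid enzymes of this list were lower too. The fatty acid synthase gene FASN was at 350.4 and 211.6 FPKM, 1.66-fold lower (1.64 to 1.67). The acyl-CoA synthetase gene ACSL3 was at 114 and 64.2 FPKM and the elongase gene ELOVL7 at 25.1 and 13.9. Another elongase gene, ELOVL5, was at 143.5 and 105 FPKM, a difference of -0.44. The separate fatty acid synthesis list went both ways: of 17 analysed genes 10 were above 0 and 7 below, with a median of 0.11. By log2 0.5 or more 2 of them were higher and 2 lower, beside 8.37% and 4.85% of all genes.

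Another 17 androgen-induced genes missed the level filter, and 11 of them had 10 or more fragments in either library. Of those 11, 10 were lower with enzalutamide, each to less than 50% of the DMSO value. The same share over all genes under the filter was not counted, so this count has no background beside it. SGK1, the serum- and glucocorticoid-regulated kinase gene, had 853 and 88 fragments (2.86 and 0.312 FPKM), 9.16-fold lower (7.35 to 11.5). STEAP4, a metalloreductase gene, had 512 and 40 fragments (1.52 and 0.126 FPKM), 12.1-fold lower (8.76 to 17.1). ZBTB16, a transcriptional repressor also induced by glucocorticoids, had 475 and 92 fragments, 4.88-fold lower, and the kinase gene MAK had 164 and 30, 5.17-fold lower. A gene that is low in most of the 6 libraries misses the filter, so these members are not a fair sample of the lists. BMPR1B, a BMP receptor gene, had 70 and 7 fragments, and INPP4B, a phosphoinositide phosphatase gene, 143 and 16. ADAM7 had 62 and 0 fragments, at least 19.5-fold lower against a floor of 3 fragments in the enzalutamide library. By the same floor ORM1, with 29 and 0 fragments, was at least 9.14-fold lower and HPGD, with 20 and 0, at least 6.30-fold lower. KLK15 was the member that was not lower, at 99 and 113 fragments (1.45 and 1.75 FPKM), with a counting interval of its fold from 0.914 to 1.60. The other 6, among them NPY, TGM4 and TMEFF2 at 0 in both libraries, had under 10 fragments.

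**Figure D2:**
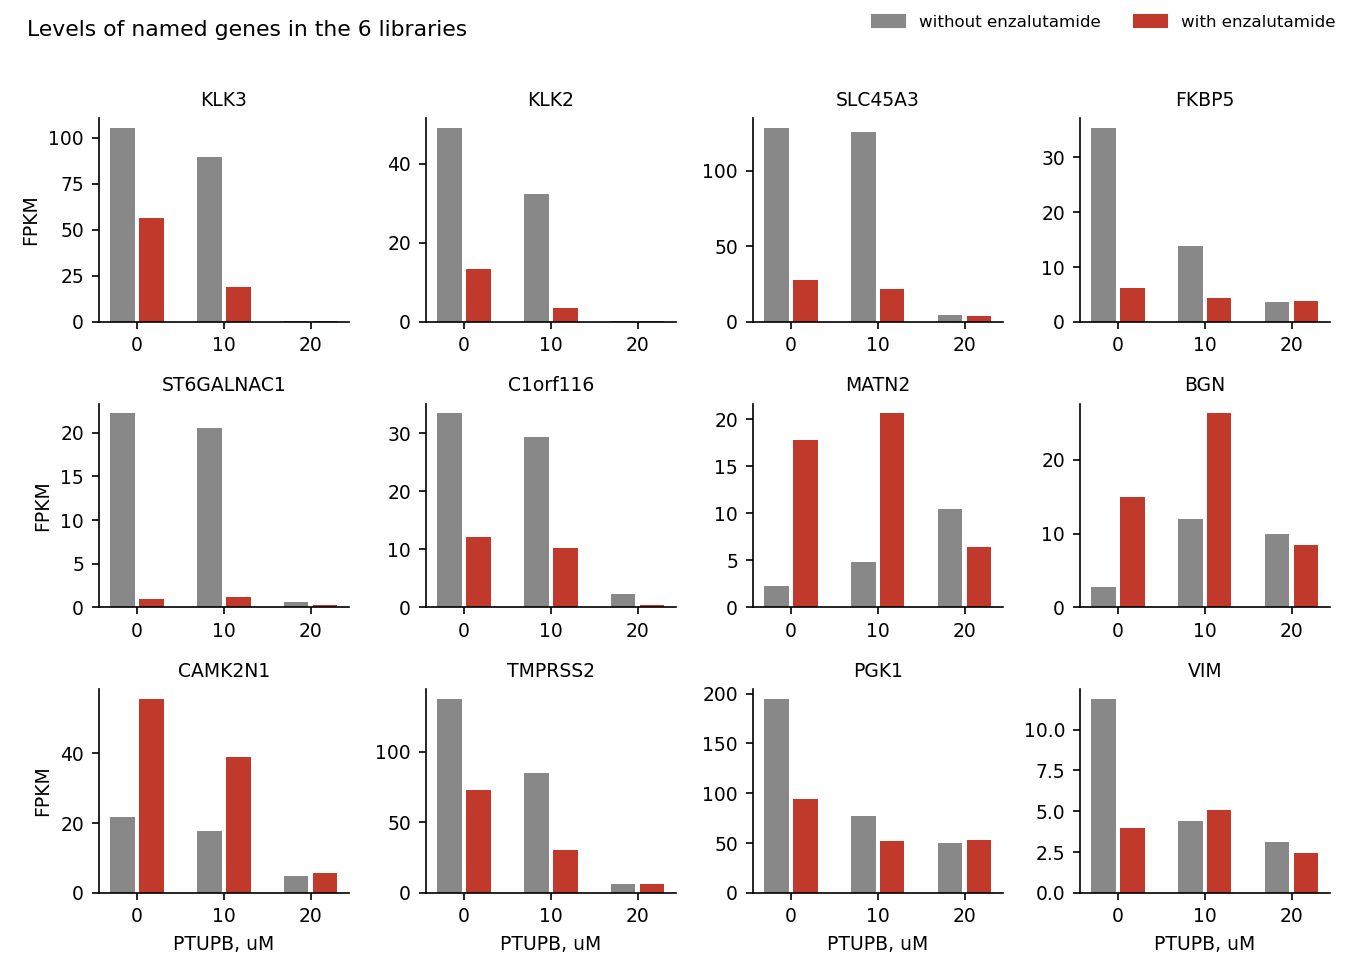
FPKM of 12 named genes in the 6 libraries, with bars in grey without and in red with enzalutamide, grouped by PTUPB dose in uM; each bar is 1 library and has no error. KLK2, SLC45A3, FKBP5, ST6GALNAC1 and C1orf116 are lower with enzalutamide at 0 and 10 uM PTUPB, MATN2, BGN and CAMK2N1 are higher there, TMPRSS2 is lower there, and PGK1 and VIM are high in the DMSO library.

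Androgen-repressed genes lay on the other side. Of 14 analysed genes of a list of 20, 13 were higher, 4 by log2 1 or more and 9 by log2 0.5 or more (beside 1.31% and 8.37% of all genes), with a median of 0.80, or 0.51 after TPM, 0.92 above all genes. When enzalutamide was added to 10 and 20 uM PTUPB, the median of this list was 0.20 and -0.27. IGFBP3, an IGF-binding protein gene, was at 1.95 FPKM with DMSO and 6.89 with enzalutamide, 3.54-fold higher (3.08 to 4.08). CAMK2N1, an inhibitor of CaMKII, was at 21.7 and 55.6 FPKM, 2.56-fold higher (2.42 to 2.71). OPRK1, the kappa opioid receptor gene, was at 0.495 and 3.08 FPKM, 6.22-fold higher (4.94 to 7.93). The androgen-glucuronidating enzyme genes UGT2B15 (9.79 and 22.4 FPKM, 2.29-fold) and UGT2B17 (2.64 and 5.95, 2.25-fold) were higher, and UGT2B11 was at 9.28 and 10.8; these are near-identical copies whose reads may be shared. MET, the hepatocyte growth factor receptor gene, was at 0.765 and 2.19 FPKM, 2.87-fold higher, and the semaphorin gene SEMA3C at 2.47 and 5.53, 2.24-fold higher. FOLH1, which encodes prostate-specific membrane antigen, was at 252 and 425.5 FPKM, 1.69-fold higher (1.66 to 1.71). LRIG1, a receptor tyrosine kinase inhibitor gene, was the 1 member that was lower, at 41.5 and 29.7 FPKM.

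Of 21 genes for cofactors of androgen signalling, 0 were past log2 0.5 in either direction. The median was -0.19. FOXA1, the pioneer factor, was at 86.7 and 75.5 FPKM, HOXB13 at 77.2 and 68.0, and GATA2, another factor that opens chromatin, at 25.4 and 33.3. The chaperone gene HSP90AA1 was at 406 and 322 FPKM and the corepressor gene NCOR1 at 8.02 and 6.601. NR3C1, the glucocorticoid receptor gene, had 23 fragments with DMSO and 4 with enzalutamide (0.0839 and 0.0154 FPKM), 5.43-fold lower with a wide interval of 1.86 to 21.6. AKR1C3, which makes androgens from weaker precursors, had 9 and 35 fragments (0.0664 and 0.273 FPKM), 4.12-fold higher (1.94 to 9.74). Both are near the lower end of what the depth resolves. SRD5A3, a polyprenol reductase gene of the steroid 5-alpha-reductase family, was at 14.0 and 22.6 FPKM, 1.61-fold higher. Luminal identity genes split, 5 higher and 4 lower by log2 0.5 or more of 18, beside 8.37% and 4.85% of all genes. SPDEF, a luminal ETS factor gene, was at 72.9 and 32.8 FPKM, 2.23-fold lower (2.10 to 2.35), and the keratin genes KRT19 (14.0 and 6.74) and KRT18 (77.2 and 50.7) were lower. The junction genes CDH1 (154.5 and 241 FPKM), CLDN4 (57.8 and 89.1) and CLDN7 (100.5 and 150.4) and the epithelial factor gene ELF3 (3.88 and 6.51) were higher.

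All 13 mRNAs encoded by the mitochondrial genome, which code for respiratory chain and ATP synthase subunits, were higher with enzalutamide, within a narrow range of 1.04 to 1.32 on the log2 scale (median 1.16; 0.73 after TPM, 1.13 above all genes). MT-CO1, a cytochrome c oxidase subunit, was at 9808 and 23260 FPKM, 2.37-fold higher, and MT-ATP8, an ATP synthase subunit, at 938 and 2344, 2.50-fold higher. MT-ND6, encoded on the light strand, was at 1356 and 2940 FPKM, 2.17-fold higher, inside the range of the heavy-strand mRNAs, though without strand its reads cannot be told from antisense transcripts. Reads may be shared with nuclear copies of mitochondrial sequence, and 1 of these copies, MTATP6P1, was at 280 and 799 FPKM. The DMSO level also lay below that of both libraries at 10 uM PTUPB. MT-CO1 was at 19613 FPKM with 10 uM PTUPB and 22549 with 10 uM PTUPB and enzalutamide, and at 8108 and 8302 for the same pair at 20 uM. Within the pairs at 10 and 20 uM the list median was 0.17 and 0.18, so adding enzalutamide to PTUPB went with a smaller difference than adding it to DMSO. That contrast was not tested, and its cause was not tested. Nuclear genes of the respiratory chain were higher in 28 of 32 cases with a median of 0.21; after TPM it was -0.21, 0.20 above all genes. NDUFA4 had the largest of these differences, at 66.6 and 113 FPKM, 1.69-fold higher, and 5 of the 32 were higher by log2 0.5 or more, beside 8.37% of all genes. Genes of mitochondrial transcription had a median of -0.00 (15 genes).

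**Figure D3:**
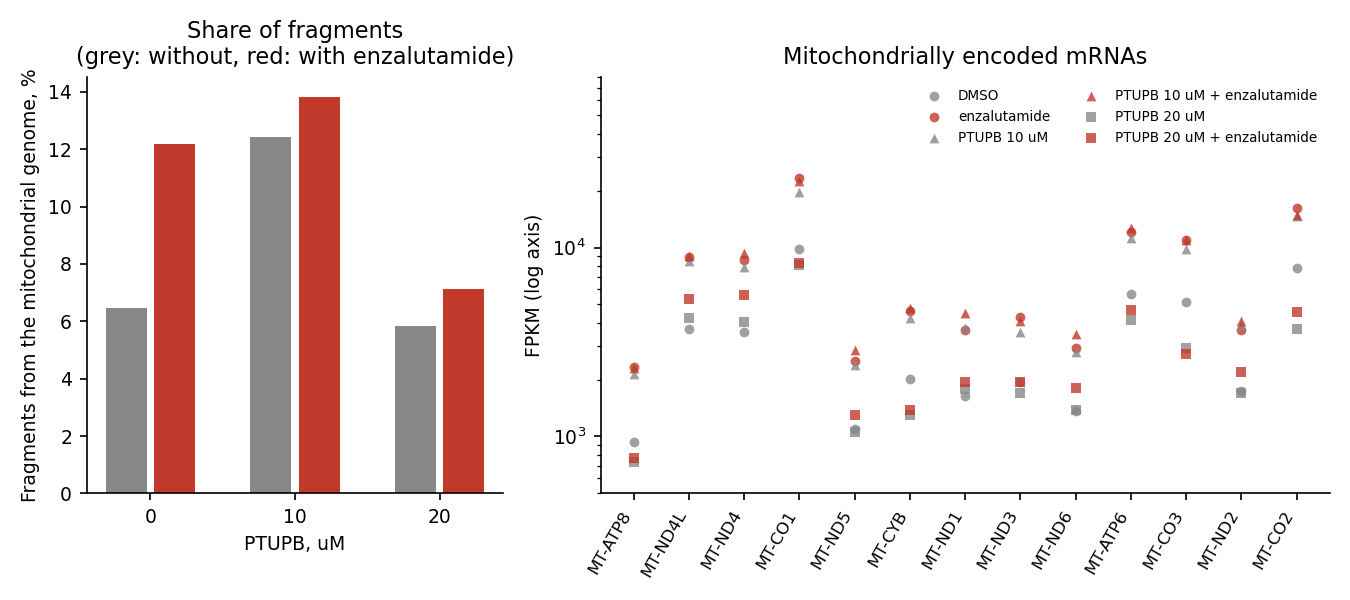
Left, percent of fragments from the mitochondrial genome in each library by PTUPB dose in uM, grey without and red with enzalutamide; right, FPKM (log axis) of the 13 mitochondrially encoded mRNAs, with circles, triangles and squares for 0, 10 and 20 uM PTUPB. The share was 6.47% with DMSO and 12.2% with enzalutamide, against 12.4% and 13.8% at 10 uM and 5.83% and 7.12% at 20 uM.

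Glycolysis genes were lower in 20 of 22 cases, with a median of -0.37; 1 was lower by log2 1 or more and 5 by log2 0.5 or more, beside 1.37% and 4.85% of all genes. PGK1, phosphoglycerate kinase, was at 195 FPKM with DMSO and 94.2 with enzalutamide, 2.07-fold lower (2.03 to 2.11). LDHA, which converts pyruvate to lactate, was at 114 and 59.0 FPKM, 1.93-fold lower, and the hexokinase gene HK2 at 19.6 and 10.9, 1.80-fold lower. ENO1, enolase, was at 313 and 199.5 FPKM, while the glucose transporter gene SLC2A1 was at 22.5 and 22.6. Several have processed pseudogenes that can share reads. SLC16A1, a lactate transporter gene, was the member past log2 0.5 on the high side, at 71.9 and 104 FPKM. The 17 analysed hypoxia genes went both ways, 3 higher and 3 lower by log2 0.5 or more, with a median of -0.09. Among them BNIP3 was at 69.0 and 38.7 FPKM, and EGLN1 at 9.72 and 6.11. CA12, a carbonic anhydrase gene, was at 17.5 and 30.6 and VEGFA at 24.9 and 22.5. For PGK1, too, the DMSO library was the highest of the 6, the other 4 lying between 49.6 and 76.8 FPKM. The promoters of LDHA and PGK1 are shown as the pair of lowest list members past or near log2 -1. Capitals mark the hypoxia response core ACGTG on either strand, within the 200 bases chr11:18394343-18394542 for LDHA and chrX:78104028-78104227 for PGK1, plus strand, RefSeq GRCh38.p14.
LDHA: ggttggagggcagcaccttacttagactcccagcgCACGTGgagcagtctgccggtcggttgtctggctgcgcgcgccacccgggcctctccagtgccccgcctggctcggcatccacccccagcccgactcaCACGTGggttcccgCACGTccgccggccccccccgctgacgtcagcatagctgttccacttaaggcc
PGK1: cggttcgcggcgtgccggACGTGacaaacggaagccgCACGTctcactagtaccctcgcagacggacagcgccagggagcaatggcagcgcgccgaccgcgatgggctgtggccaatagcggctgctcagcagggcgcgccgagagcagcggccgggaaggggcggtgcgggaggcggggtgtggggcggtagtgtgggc
The core was in 8 of 21 glycolysis promoters (38.1%) and in 18.7% of all promoters of 250 bases. It was also in 12 of 48 androgen-induced (25%) and 2 of 8 androgen-repressed promoters (25%), and a role of hypoxia was not tested.

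Genes of the ATF4 response, by which cells short of amino acids or with stressed endoplasmic reticulum raise amino acid transport and synthesis, were higher in 28 of 31 cases (median 0.46; 0.05 after TPM, 0.45 above all genes), 13 by log2 0.5 or more, beside 8.37% of all genes. FGF21, a secreted metabolic hormone gene, was at 1.48 FPKM with DMSO and 7.35 with enzalutamide, 4.98-fold higher (3.74 to 6.73). CHAC1, which degrades glutathione, was at 4.10 and 7.98 FPKM, 1.95-fold higher (1.67 to 2.28). The transporter gene SLC7A5 was at 71.5 and 120.0 FPKM, its partner SLC3A2 at 39.3 and 63.8, and the mTORC1 inhibitor gene DDIT4 at 35.2 and 59.6. ATF4 itself was at 166 and 212 FPKM, 1.28-fold higher, and GDF15, a stress cytokine gene, was lower at 26.9 and 19.8. All 22 genes for chaperones of the endoplasmic reticulum and its unfolded protein response were higher, with a median of 0.33; after TPM it was -0.09, 0.31 above all genes. Of the 22, 2 were higher by log2 0.5 or more, beside 8.37% of all genes. The sensor gene ATF6 was at 14.2 and 24.7 FPKM, 1.75-fold higher, and XBP1, a transcription factor of the unfolded protein response, at 137 and 205. FGF21 and CHAC1 are the 2 of 26 ATF4 list genes with a RefSeq promoter that hold the element TGATGCAA on either strand (7.69%, against 0.82% of all promoters). They are shown with that element, or its reverse complement, in capitals, for the 200 bases chr15:40953221-40953420 (CHAC1) and chr19:48755324-48755523 (FGF21), plus strand, RefSeq GRCh38.p14.
CHAC1: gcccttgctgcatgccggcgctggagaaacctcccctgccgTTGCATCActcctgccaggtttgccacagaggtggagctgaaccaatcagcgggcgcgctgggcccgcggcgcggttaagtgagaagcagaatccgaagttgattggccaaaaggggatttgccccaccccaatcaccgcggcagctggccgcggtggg
FGF21: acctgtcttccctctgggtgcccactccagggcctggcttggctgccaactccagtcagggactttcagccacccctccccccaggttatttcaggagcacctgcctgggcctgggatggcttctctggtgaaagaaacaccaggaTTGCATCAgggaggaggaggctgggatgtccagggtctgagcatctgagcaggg
In the printed plus strand both read as the reverse complement.

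Ribosomal protein genes were all 30 higher, by 0.08 to 0.77 on the log2 scale, with a median of 0.40; after TPM it was -0.03, 0.37 above all genes. By log2 0.5 or more 8 of the 30 were higher, beside 8.37% of all genes. RPS18 was at 811 and 1380 FPKM, and many ribosomal protein genes have pseudogenes that can share reads. By contrast 20 of 23 MYC and ribosome biogenesis genes were lower (median -0.21), and MYC itself was at 98.5 and 94.5 FPKM. Of the 23, 1 was lower by log2 0.5 or more, beside 4.85% of all genes. Of 11 genes for MHC class I and its peptide loading all were higher, 7 by log2 0.5 or more, beside 8.37% of all genes. Their median was 0.56 (0.20 after TPM, 0.60 above all genes). TAPBP, the tapasin gene, was at 19.2 and 35.4 FPKM, 1.85-fold higher (1.76 to 1.93), the peptide transporter gene TAP1 at 6.25 and 10.8, and HLA-B, whose reads may be shared with other class I genes, at 23.8 and 40.5. Lysosome and autophagy genes were higher in 22 of 27 cases, 11 by log2 0.5 or more, beside 8.37% of all genes. Their median was 0.42 (0.02 after TPM, 0.43 above all genes). The lysosomal galactosidase gene GLB1 (20.4 and 34.9 FPKM), the protease gene CTSL (33.8 and 58.6) and the cholesterol carrier gene NPC2 (19.0 and 32.9) were among the highest differences, while TFEB, a regulator of lysosome genes, was at 1.83 and 1.48. Of 13 arachidonic acid genes 8 were above 0 and 5 below, with 5 higher and 0 lower by log2 0.5 or more, beside 8.37% and 4.85% of all genes. Their median was 0.40 (0.05 after TPM, 0.45 above all genes). Beside PLA2G2A, the list held PTGS1, cyclooxygenase-1, at 0.953 and 3.22 FPKM, 3.38-fold higher (2.83 to 4.05). PTGES, prostaglandin E synthase, was at 1.62 and 3.85 FPKM and the microsomal epoxide hydrolase gene EPHX1 at 258 and 508, 1.97-fold higher (1.93 to 2.00).

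Cell cycle genes were lower by small amounts. All 30 G2/M genes were lower, between -0.70 and -0.10 on the log2 scale (median -0.35), as were 25 of 26 G1/S genes (median -0.24). Of all 12960 genes, 6536 were below 0. By log2 0.5 or more 7 of the 30 and 4 of the 26 were lower, beside 4.85% of all genes, and by log2 1 or more 0. The mitotic kinesin gene KIF20A was at 14.4 and 8.49 FPKM, 1.702-fold lower, the kinase gene PLK1 at 18.3 and 11.1, and AURKB at 13.0 and 8.10. MKI67, the proliferation antigen gene, was at 12.3 and 8.27 FPKM, but CDK1 (57.9 and 53.5) and TOP2A (16.8 and 15.5) differed by about log2 -0.11. In the pair at 10 uM PTUPB the G2/M median was -1.24, and at 20 uM it was 0.49. Cholesterol synthesis genes (median 0.06, 19 genes), p53 targets (0.09, 22 genes), apoptosis genes (-0.01, 17 genes), fatty acid oxidation (0.02, 15 genes) and NRF2 targets (-0.04, 18 genes) had medians near that of all genes, with 0 members past log2 1. After TPM cholesterol synthesis, p53 targets and fatty acid oxidation turned to -0.36, -0.29 and -0.40, beside -0.41 for all genes. Heat shock genes were lower in 17 of 18 cases (median -0.26), 1 of them by log2 0.5 or more. Interferon genes had a median of 0.10 over 11 genes, or -0.30 after TPM.

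**Figure D4:**
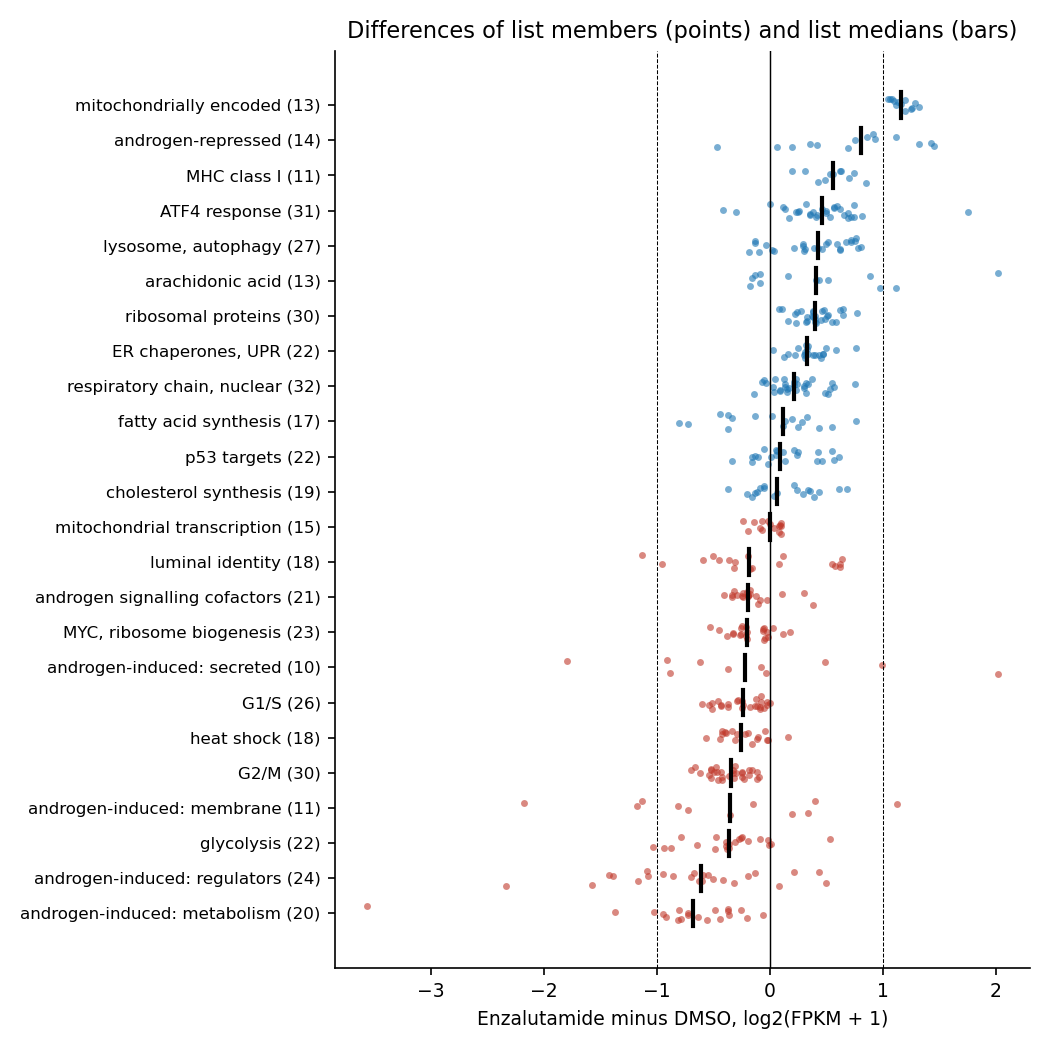
Difference in log2(FPKM + 1), enzalutamide minus DMSO, for the analysed members of 24 gene lists (points; numbers of genes in brackets) with the list median (bar), ordered by median, red for medians below 0 and blue for those above; dashed lines mark log2 1 in each direction. Metabolic and regulatory androgen-induced genes lie lowest (-0.68 and -0.62), and the mitochondrially encoded mRNAs (1.16) and androgen-repressed genes (0.80) highest. TPM moves the all-gene median by -0.40. After it the respiratory chain, ribosomal protein and ER chaperone medians are below 0 but 0.20, 0.37 and 0.31 above that of all genes.

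The 15 largest differences in each direction, among genes with at least 5 FPKM in one of the libraries and at least 50 fragments, included 6 androgen-induced genes on the low side (ST6GALNAC1, FKBP5, SLC45A3, KLK2, RHOU and HERC3). The high side held 0 androgen-repressed genes and 1 androgen-induced gene, PLA2G2A. Of all 12960 genes analysed, a wider set than the one ranked here, 65 were in the androgen-induced lists and 14 in the androgen-repressed list. NPPC, the C-type natriuretic peptide gene, was at 12.4 FPKM with DMSO and 2.41 with enzalutamide, 5.14-fold lower (3.995 to 6.69). RAB3B, a secretory vesicle GTPase gene, was at 12.6 and 3.34 FPKM, 3.76-fold lower (3.53 to 4.01), and MCCC2, a leucine-degrading carboxylase subunit, at 26.9 and 9.09, 2.96-fold lower. The lowest of all was the lincRNA FP671120.4 (ENSG00000281383, chromosome 21, 8254592 to 8255514), at 32.1 FPKM with DMSO, 1.496 with enzalutamide and 1.15 to 1.94 in the other 4 libraries. It marks the DMSO library against the other 5, as does VIM, the vimentin gene, at 11.9 FPKM with DMSO, 3.96 with enzalutamide and 2.46 to 5.11 elsewhere. VIM is a stromal marker, and it made up most of the difference in the summed stromal level (17.1 and 9.20 FPKM); the part of other cells in it was not tested.

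On the high side MATN2, an extracellular matrix adaptor gene, was at 2.30 FPKM with DMSO and 17.8 with enzalutamide, 7.72-fold higher (7.01 to 8.51). BGN, the matrix proteoglycan biglycan, was at 2.71 and 14.98 FPKM, 5.52-fold higher (4.74 to 6.46). BAMBI, a decoy receptor for TGF-beta family ligands, was at 49.7 and 147 FPKM, 2.96-fold higher, and SDC4, the heparan sulfate proteoglycan syndecan-4, at 44.1 and 127, 2.88-fold higher. ATP1B1, the beta subunit of the sodium-potassium pump, had the highest level among them outside mitochondrial genes and their copies, at 182 and 529.5 FPKM, 2.91-fold higher (2.86 to 2.97). PRSS1, a trypsinogen gene with close copies, was at 4.58 and 18.7 FPKM. The other 7 on this side were noncoding RNAs and gene copies, for example RNU7-57P (3.90 and 26.0 FPKM), whose interval of 2.97 to 17.5 around 6.65-fold shows how few fragments it rests on. GALNT3, which starts mucin-type glycans, was at 15.5 and 35.0 FPKM, 2.26-fold higher, unlike the sialyltransferase gene ST6GALNAC1.

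Enzalutamide was also added on top of PTUPB, in libraries that share none with this comparison. Among 7446 genes with at least 5 FPKM and 50 fragments here, 43 were lower by log2 1 or more with enzalutamide alone, and 20 of them (46.5%) were also lower by that margin in the pair at 10 uM PTUPB, where 131 genes were; these 20 are 15.3% of the 131. The same margin took in 1.76% of the 7446 genes at 10 uM. Their median there was -0.88, beside -0.04 for all 7446. Of the 75 genes higher here, 12 (16%) were also higher at 10 uM, 46.2% of the 26 there (0.349% of the 7446), and the median was 0.39. Over all 12960 genes that pair had 1.41% higher, 2.01% lower and 3.42% in either direction by log2 1 or more, and the pair at 20 uM 3.83%, 2.9% and 6.74%. At 20 uM 5 of the 43 (11.6%) were lower, beside 1.07% of the 7446 genes, and 6 were higher by that margin. Of the 75, 4 (5.33%) were higher, beside 2.57%, and 4 lower. The enzalutamide dose of the combinations is not labelled, so these pairs stand side by side and their difference was not tested.

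Androgen-induced genes were set side by side in the 3 pairs. Of the 65, 14 were lower by log2 1 or more with enzalutamide alone, 20 (30.8%, beside 2.01% of all genes) in the pair at 10 uM and 3 (4.62%, beside 2.9%) at 20 uM, where 4 others were higher; 10 of the 14 were lower in both the first and the second. Medians were -0.61, -0.56 and -0.05. SLC45A3 was at 125 FPKM with 10 uM PTUPB and 21.7 with enzalutamide added, close to its 128 and 27.5 without PTUPB, but at 4.34 and 3.93 with 20 uM PTUPB. ST6GALNAC1 was at 20.5 and 1.16 FPKM at 10 uM, and 0.663 and 0.284 at 20 uM. KLK3 was at 89.7 and 19.0 FPKM at 10 uM, a larger difference (-2.18) than its -0.89 without PTUPB, and at 0.648 and 0.458 at 20 uM. The libraries with 20 uM PTUPB thus held little of these transcripts with or without enzalutamide. C1orf116 was lower by log2 1 or more in all 3 pairs (-1.39, -1.43 and -1.23), at 29.4 and 10.3 FPKM with 10 uM and 2.36 and 0.436 with 20 uM PTUPB. PNLIPRP3, a lipase-like gene, was as well (-1.002, -1.37 and -2.23), from 1.36 FPKM with DMSO to 0.181 with enzalutamide; the other genes lower or higher in all 3 were short RNAs and copies with few fragments.

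Of the 15 lowest genes 9 were lower by log2 1 or more at 10 uM as well, beside 1.76% of the 7446 genes they were drawn from. Of the 15 highest, 3 (MATN2, BGN and FGF21) were higher, beside 0.349% of the 7446. At 20 uM this held for 0 of the 15 lowest and 1 of the 15 highest, PLA2G2A. MATN2 was at 4.86 FPKM with 10 uM PTUPB and 20.6 with enzalutamide added, and BGN at 11.96 and 26.3. PLA2G2A was at 7.17 and 11.4 FPKM, and ATP1B1 at 214 and 265, smaller differences than without PTUPB. The 10 uM PTUPB library without enzalutamide, compared with the same DMSO library, had 2.39% of genes past log2 1 (1.62% higher, 0.772% lower) and gave its own list medians of 1.07 for the mitochondrially encoded mRNAs, -0.59 for glycolysis, -0.23 for androgen-induced and 0.49 for androgen-repressed genes. Enzalutamide alone gave 1.16, -0.37, -0.61 and 0.80 for these lists. Both comparisons share the DMSO library, so a level particular to that library enters both alike, and for this reason no overlap between them is given.

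**Figure D5:**
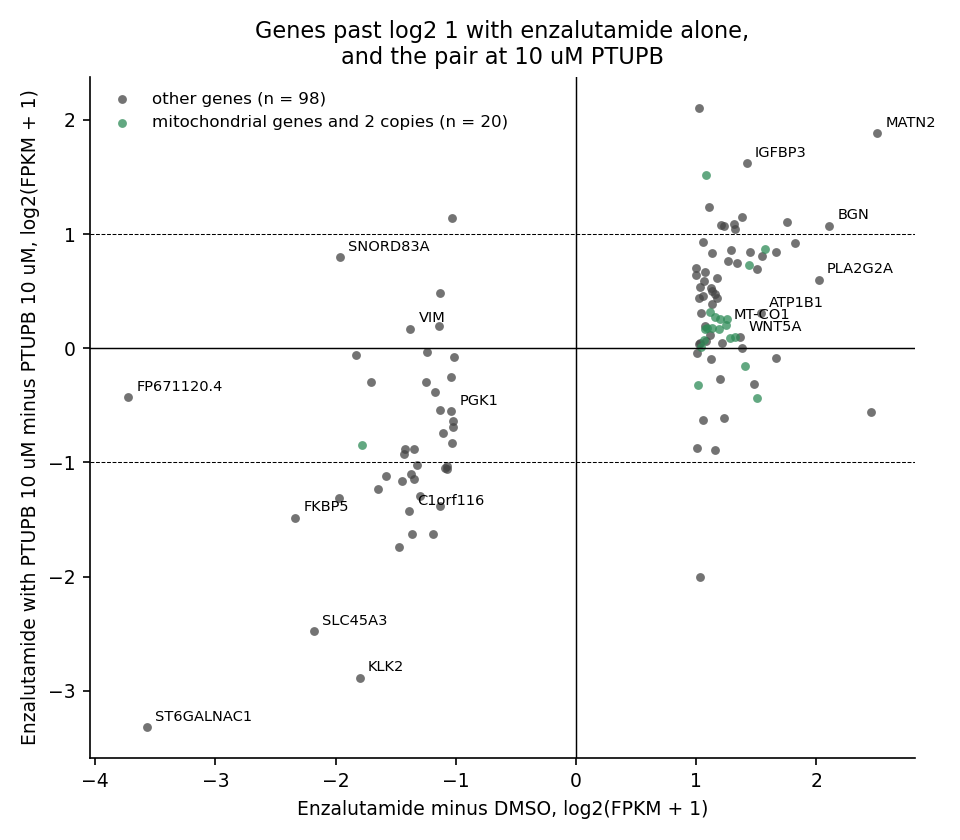
Difference in log2(FPKM + 1) with enzalutamide alone (x axis) and with enzalutamide added to 10 uM PTUPB (y axis) for the 118 genes past log2 1 on the x axis with at least 5 FPKM and 50 fragments, 20 of them of the mitochondrial genome or its copies (green); the 2 pairs share no library. Of the 43 genes on the left 38 are below 0 on the y axis, and the 13 mitochondrially encoded mRNAs have a median of 0.17 there.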

How the data were processed

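RNA-seq was made from C4-2B MDVR cells, 1 library per group. The authors deposited 1 table of FPKM values for 6 libraries. The submitters' processing notes name HISAT and Cufflinks, without versions; genome build and strand setting are not given in the sources used here. All 58735 gene identifiers matched GENCODE 29. FPKM times exon length gave whole multiples of 1 step per library (tolerance 0.05 fragments), from which fragments were recovered, and these gave depth and the exact binomial 95% intervals of folds. Differences are of log2(FPKM + 1) between ENZ and DMSO for genes with a mean FPKM of 1 or more over 6 libraries; 27414 genes were 0 in all. No test was made, since there is 1 library a side.

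Genes were counted at log2 1 and described in 48 lists (922 of 924 entries matched). Named were a core set (KLK3, KLK2, TMPRSS2, FKBP5, SLC45A3, NR3C1, MYC, MKI67, AKR1C3 and FOLH1), the 15 largest differences per direction at 5 FPKM and 50 fragments or more, up to 5 members per list with a difference of 0.5 or more, genes past log2 1 in all 3 enzalutamide pairs, and further list members to show a list. SNORA11F, WASF1, ZNF790 and CFAP20DC were chosen as the nearest to a threshold, and list genes under the level filter were chosen after their values were seen. The lists and the comparison were chosen with earlier results of these data known. Reads of paralogs and pseudogenes may be shared, and genes that overlap on opposite strands cannot be told apart without strand. Results for 4 genes that the rule or lists take in are not reported here. Promoters came from RefSeq (GRCh38.p14). Alternatives were the pseudocount, the level filter and the scaling; scaling by total fragments and protein-coding genes with 50 or more fragments were added after seeing the data. Steps were tested on simulated data and run in Python 3.11.15 with numpy 2.4.6, pandas 2.3.3, scipy 1.17.1 and matplotlib 3.10.9.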

Additional observations from a re-analysis of the deposited data

Results flagged for a closer look

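Among the genes named by rule, the following 4 were past log2 1 with enzalutamide alone and in the opposite direction when it was added to 20 uM PTUPB. Over all 12960 genes, 17 of the 170 higher and 32 of the 178 lower genes did so. In the 20 uM pair 2.9% of all genes were lower and 3.83% higher by this margin. Each pair is 1 library a side, and these differences between pairs were not tested. IGFBP3, an androgen-repressed gene, differed by 1.42 alone and by -1.08 at 20 uM, where it was at 5.58 FPKM without and 2.11 with enzalutamide. AL359962.2 differed by 1.45 and -1.81, the small nucleolar RNA SNORD83A by -1.97 and 2.60, and the mitochondrial tRNA MT-TV by -1.78 and 1.18.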

How the results depend on the processing

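No library could be left out, since each side holds 1, and no paired analysis was possible because the result comes from no test. Against 170 higher and 178 lower genes, a mean FPKM of 5 or more gave 74 and 37, no filter 296 and 448, a pseudocount of 0.1 gave 354 and 388, and TPM 140 and 652. TPM without mitochondrial genes gave 253 and 414, and protein-coding genes with 50 or more fragments, chosen after seeing the data, 61 and 37. Androgen-induced genes lower by log2 1 or more numbered 14, 35 by TPM and 12 to 21 under the other settings. Under TPM the all-gene median shifted by -0.40, and list medians relative to it moved by at most 0.14 under any of the 4 other scalings. In none of the settings run did a gene named by rule that was past log2 1 change direction. Depth limits NR3C1, AKR1C3 and the genes under 50 fragments.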
